A study of Sus scrofa with 12 samples.

Results

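In pig liver, 10 genes of T cells and natural killer (NK) cells were examined: CD3D, CD3E, CD8A, CD4, LCK, THEMIS, CD2, CD5, PRF1 and NKG7. They were taken from the deposited gene table by symbol, each symbol has 1 row, and the table lists 21169 gene rows. All 10 passed the filter on low counts, which left 13532 genes for testing. The liver samples came from pigs of the Hezuo breed, a small pig of the cold Gansu highlands, and of the Bama breed, a miniature pig of southern China. Per the labels, room temperature was 23 ± 2 °C and cold was -15 ± 2 °C, and liver was taken on day 15. There were 3 pigs in each of 4 groups: Bama at room temperature, Bama in the cold, Hezuo at room temperature and Hezuo in the cold. The labels number the pigs 1 to 3 within a group and give neither age nor sex. They name no other treatment. The stated purpose was to find RNAs tied to the cold resistance of Hezuo pigs.

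T cells recognize antigen through a receptor whose signal is carried into the cell by the CD3 chains. The coreceptor CD8 marks T cells that read MHC class I, and CD4 those that read class II. When the receptor is engaged, the kinase LCK phosphorylates the CD3 chains, and adaptors pass the signal on. NK cells and cytotoxic T cells kill targets with granules that hold perforin and granzymes. The liver holds many resident lymphocytes of both kinds in its sinusoids, and pigs are known for having T cells that carry CD4 and CD8 together as well as many gamma delta T cells. In whole liver, a gene of these cells can be low because there are fewer such cells or because each cell holds less of the RNA. These cannot be told apart in bulk RNA.

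Gene counts totalled about 20041300 to 30188000 per library. The label liver was borne out by hepatocyte genes, of which 11 rows summed to 47430 to 197544 CPM (read counts scaled to library size), against 73.7 to 321 CPM for the 10 T and NK cell genes together. Library sizes were adjusted by the trimmed mean of M-values (TMM). RNA of the Y-linked gene DDX3Y had 0 to 3 counts in Bama cold replicate 2 and all Bama room temperature libraries, and 1331 to 3769 counts in the other 8, including all 6 of Hezuo pigs. Its part in the results at room temperature cannot be told apart from that of breed. Among Bama libraries only cold replicates 1 and 3 had this RNA, so it was unbalanced between the temperatures too. That imbalance enters the cold comparison in Bama pigs, the breed difference in response and the averaged response. Hezuo cold replicates 2 and 3 stood apart from the other Hezuo libraries in CD3E. Bama room temperature replicate 2 was the lowest of its group for each of the 10 genes. Results that rest on these libraries are given with and without them.

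Per length of transcript, NKG7 was the most abundant of the 10 genes, with a mean of 15.6 FPKM (fragments scaled by transcript length and library depth) over the 12 libraries, followed by CD2 at 12.2 and CD4 at 9.48 FPKM. CD8A had a mean of 8.18 FPKM, CD3D of 6.57, LCK of 5.89, CD3E of 5.08 and PRF1 of 3.22 FPKM. CD5 at 1.02 and THEMIS at 0.69 FPKM were the lowest. The libraries of genes that are neighbours in this order overlapped in every case, and the order holds for the mean over all 12 libraries only, since CD8A lay above CD4 in Bama pigs at room temperature and below it in the other 3 groups.

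In what follows, 3 values in a row are replicates 1, 2 and 3 of a group, in CPM. CD3D and CD3E encode the delta and epsilon chains of the CD3 complex, which pair with other chains to bring the receptor to the surface. CD3D (ENSSSCG00000015093) was at 31.4, 18.2 and 35.4 CPM in Bama pigs at room temperature and at 23.5, 17.3 and 16.2 in Bama pigs in the cold. In Hezuo pigs it was at 9.41, 17.9 and 10.4 CPM at room temperature and at 12.8, 15.0 and 17.1 in the cold. The Hezuo libraries lay below the Bama libraries at room temperature, by a narrow margin between the highest Hezuo and the lowest Bama library, and the breeds overlapped in the cold.

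CD3E (ENSSSCG00000040140) was at 25.2, 10.3 and 30.4 CPM in Bama pigs at room temperature and at 19.0, 9.52 and 11.3 in the cold. Hezuo pigs had values of 4.27, 7.76 and 3.97 CPM at room temperature and 5.37, 23.1 and 19.3 in the cold. At room temperature all Hezuo libraries lay below all Bama libraries. In the cold, Hezuo replicate 1 stayed at the level of the room temperature libraries, while replicates 2 and 3 lay above every Bama library kept in the cold.

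CD8 and CD4 bind MHC molecules beside the receptor. CD8A (ENSSSCG00000008217), the alpha chain of CD8, was at 43.8, 15.9 and 57.9 CPM in Bama pigs at room temperature and at 33.6, 19.9 and 23.8 in the cold. In Hezuo pigs it was at 7.51, 8.35 and 6.22 CPM at room temperature and at 8.18, 5.99 and 6.78 in the cold. All 6 Hezuo libraries lay below all 6 Bama libraries, and the 6 Hezuo libraries lay close together. CD4 (ENSSSCG00000000687), the coreceptor of helper T cells that macrophages of some species also carry, was at 33.0, 24.1 and 35.7 CPM in Bama pigs at room temperature and at 36.3, 43.9 and 41.1 in the cold. Hezuo pigs had values of 15.5, 23.2 and 14.3 CPM at room temperature and 12.2, 29.3 and 18.9 in the cold. Hezuo lay below Bama at each temperature, and Hezuo cold replicate 2 lay above the lowest Bama library at room temperature.

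LCK and THEMIS act just inside the membrane. LCK (ENSSSCG00000003608), the kinase that starts the signal, was at 33.9, 13.9 and 42.3 CPM in Bama pigs at room temperature and at 28.4, 14.2 and 17.9 in the cold. In Hezuo pigs it was at 9.23, 11.6 and 8.37 CPM at room temperature and at 9.41, 8.80 and 9.51 in the cold. All Hezuo libraries lay below all Bama libraries. THEMIS (ENSSSCG00000024392), a protein of the T lineage that tunes receptor signalling during selection in the thymus, was at 5.66, 2.56 and 5.33 CPM in Bama pigs at room temperature and at 4.17, 2.52 and 3.48 in the cold. Hezuo pigs had values of 1.04, 0.95 and 0.81 CPM at room temperature and 1.09, 1.16 and 1.06 in the cold. The highest Hezuo library, at 1.16 CPM, lay below the lowest Bama library, at 2.52 CPM.

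CD2 and CD5 are surface receptors, CD2 an adhesion and costimulatory molecule of T and NK cells and CD5 a receptor that dampens the signal of the T cell receptor. CD2 (ENSSSCG00000006736) was at 38.2, 20.4 and 45.9 CPM in Bama pigs at room temperature and at 37.5, 20.7 and 21.6 in the cold. In Hezuo pigs it was at 11.6, 17.0 and 12.01 CPM at room temperature and at 12.5, 10.6 and 11.6 in the cold. CD5 (ENSSSCG00000013115) was at 13.6, 4.64 and 15.9 CPM in Bama pigs at room temperature and at 10.96, 6.72 and 10.1 in the cold. For both genes, all Hezuo libraries lay below all Bama libraries. In Hezuo pigs CD5 was at 2.93, 3.95 and 3.44 CPM at room temperature and at 2.57, 1.64 and 2.29 in the cold, the cold libraries lying below those at room temperature.

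PRF1 encodes perforin, which opens pores in target cells, and NKG7 a membrane protein of cytotoxic granules. PRF1 (ENSSSCG00000010271) was at 16.7, 6.79 and 17.2 CPM in Bama pigs at room temperature and at 14.01, 9.27 and 10.7 in the cold. Hezuo pigs had values of 6.73, 8.53 and 6.12 CPM at room temperature and 5.89, 6.55 and 6.98 in the cold. NKG7 (ENSSSCG00000003231) was at 27.8, 14.1 and 34.6 CPM in Bama pigs at room temperature and at 37.3, 14.6 and 17.5 in the cold. For both genes the breeds did not overlap in the cold, and at room temperature they overlapped through Bama replicate 2 and Hezuo replicate 2. NKG7 in Hezuo pigs was at 10.1, 14.8 and 8.04 CPM at room temperature and at 11.5, 12.5 and 10.5 in the cold.

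**Figure D1:**
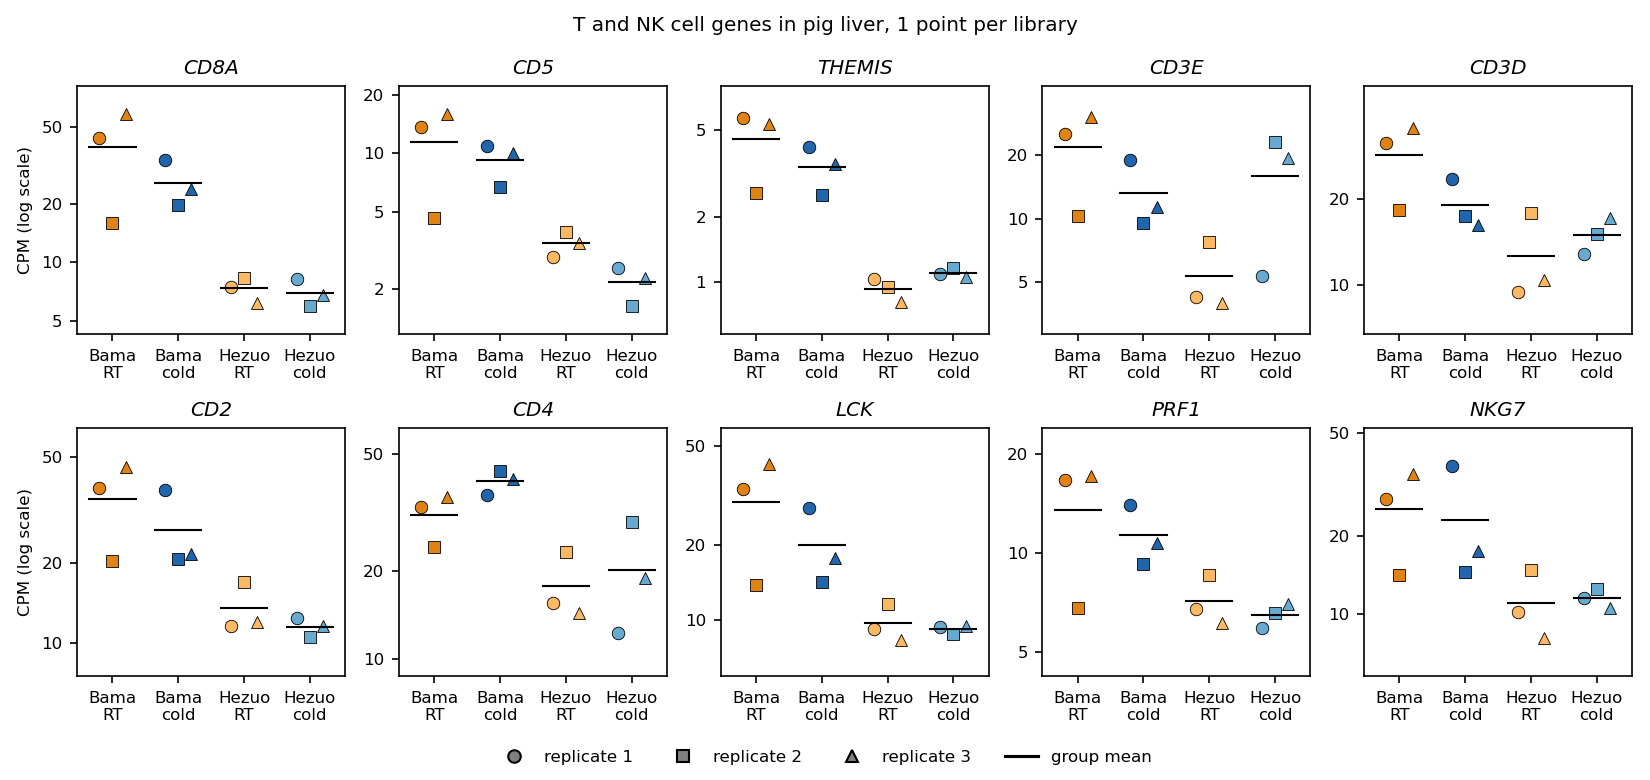
CPM of the 10 T and NK cell genes on a log axis, 1 panel per gene, with 1 point for each of the 12 libraries and a bar at the mean of each group of 3; RT is room temperature. For CD8A, CD5, THEMIS, CD2 and LCK all 6 Hezuo libraries lie below all 6 Bama libraries, and CD3E is split in Hezuo pigs in the cold, with replicate 1 at 5.37 CPM and replicates 2 and 3 at 23.1 and 19.3 CPM.

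At room temperature, the T cell genes CD8A and THEMIS were lower in Hezuo than in Bama livers. CD8A had means of 7.36 ± 1.07 and 39.2 ± 21.4 CPM (SD, n = 3 each), a level 5.32 times lower and a log2 fold change of -2.41 ± 0.39 (SE; edgeR quasi-likelihood test with Benjamini-Hochberg adjustment, adjusted p = 0.0311). THEMIS had means of 0.93 ± 0.11 and 4.52 ± 1.7 CPM, a level 4.82 times lower and a log2 fold change of -2.27 ± 0.33 (adjusted p = 0.018). These were the 2 of 10 genes called, a gene being called where the adjusted p over all genes tested was below 0.05, and 0.406% of all genes tested were called lower in this comparison. The libraries of the breeds did not overlap, with Hezuo lower, for 8 of the 10, all but PRF1 and NKG7, against 10.8% of all genes tested. All 10 fold changes were negative, with a median of -1.49, while the median of all genes tested was -0.0033 and 50.4% of them were negative. The 10 were chosen with earlier results of these data known, so such shares and medians, here and in the cold, are descriptions.

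The other 8 genes missed the threshold at room temperature. The surface receptors CD5 and CD2 were at -1.73 ± 0.39 and -1.36 ± 0.30 on the log2 scale and LCK at -1.63 ± 0.36, each with an adjusted p of 0.0535. CD3E was at -2.04 ± 0.56 (edgeR adjusted p = 0.0943) and CD3D at -1.17 ± 0.29 (adjusted p = 0.0681). The cytotoxic genes NKG7 and PRF1 were at -1.22 ± 0.39 and -0.93 ± 0.30 (adjusted p = 0.129 for both), and CD4 had the smallest fold change, -0.81 ± 0.29 (adjusted p = 0.153). DESeq2 called 8 of the 10, all but CD4 and PRF1, and called 3.78% of all genes lower.

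The count of 2 changed with the libraries included. Without Bama replicate 2, the lowest Bama library for every one of the 10 genes, edgeR called 9, all but CD4, and 2.59% of all genes lower. Without Bama replicate 1 or 3, or Hezuo replicate 1 or 3, it called 0, with an adjusted p of 0.0594 to 0.112 for CD8A and THEMIS. Over all genes these fits called only 0.00729% to 0.0587% lower. In these 4 fits 9 or 10 of the genes had an unadjusted p below 0.05. The share of all genes tested below that p is not given, here or in what follows, so such counts are descriptions. DESeq2 on all libraries called 8, with 3.78% of all genes called lower. Without Hezuo replicate 2 edgeR called THEMIS and CD3D, and 0.212% of all genes lower, and CD8A had an adjusted p of 0.0506. Without Bama cold replicate 1, which enters this comparison only through the shared estimate of the spread, edgeR called 4, adding CD2 and LCK, and 0.598% of all genes lower. Without Hezuo cold replicates 2 and 3 together, which leaves 1 Hezuo cold library, the log2 fold change of CD8A at room temperature was -2.42. With the presence of Y-linked RNA as a covariate edgeR called 0 of the 10, and 0 of all genes tested lower. In that fit 9 of the 10 had an unadjusted p below 0.05. Its log2 fold changes were -2.94 for CD8A (edgeR adjusted p = 0.38) and -2.87 for THEMIS (adjusted p = 0.305). The Y-linked term rests on the Bama cold libraries alone, the only group with libraries of both kinds. It is carried over to room temperature, where this RNA and breed go together, so these values do not separate the 2.

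In the cold, CD8A, THEMIS and the inhibitory receptor CD5 were lower in Hezuo than in Bama livers. CD8A had means of 6.98 ± 1.11 and 25.8 ± 7.07 CPM (SD, n = 3 each), a log2 fold change of -1.88 ± 0.39 (edgeR adjusted p = 0.0317). CD5 had means of 2.16 ± 0.48 and 9.26 ± 2.24 CPM (-2.10 ± 0.40, adjusted p = 0.025), and THEMIS of 1.11 ± 0.05 and 3.39 ± 0.83 CPM (-1.61 ± 0.32, adjusted p = 0.0275). These 3 of the 10 were called, and 0.961% of all genes tested were called lower here. No overlap, with Hezuo lower, was found for 8 of the 10, all but CD3E and CD3D, against 12.9% of all genes tested. The median log2 fold change of the 10 was -1.07, with 9 negative, against a median of -0.0070 and 50.7% negative over all genes tested.

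Of the genes that missed the threshold in the cold, CD2 was at -1.20 ± 0.30 (edgeR adjusted p = 0.0574), CD4 at -1.01 ± 0.29 (0.0778) and LCK at -1.12 ± 0.36 (0.109). NKG7 was at -1.01 ± 0.39 and PRF1 at -0.80 ± 0.30. CD3D was at -0.34 ± 0.28 (adjusted p = 0.531), and CD3E at 0.27 ± 0.53 (adjusted p = 0.822). The sign of CD3E turned without Hezuo cold replicate 2 (-0.11) and without Hezuo cold replicates 2 and 3 (-1.31 ± 0.67, adjusted p = 0.455, with 1 Hezuo cold library assumed to vary like the other groups).

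The count of 3 in the cold was 6 with DESeq2, which added CD2, CD4 and LCK and called 3.69% of all genes lower. With only the 2 groups compared THEMIS was lost (adjusted p = 0.0543). The count was 0 without Bama cold replicate 1 or without either of Hezuo cold replicates 1 and 3. Without Hezuo cold replicate 2 it was 1, CD4, among 0.357% of all genes called lower. CD8A, CD5 and THEMIS had an edgeR adjusted p of 0.0637 to 0.115 in these fits. The fits with a count of 0 called 0.154% to 0.219% of all genes lower. They had 6 or 7 of the 10 genes at an unadjusted p below 0.05, a description without the share of all genes. Without Hezuo cold replicates 2 and 3 together, 1 Hezuo cold library is left. The log2 fold changes in that fit were -1.66 for CD8A, -1.86 for CD5 and -1.63 for THEMIS. Without Bama room temperature replicate 2 the count was 6, with CD2, LCK and PRF1 added and 1.22% of all genes called lower. CD8A alone was also lost without Bama cold replicate 2 (adjusted p = 0.0525) or Hezuo room temperature replicate 1 (0.0504), and with Y-linked RNA as a covariate (0.0518). Bama cold replicates 1 and 3, which have Y-linked RNA as all Hezuo libraries do, were at 33.6 and 23.8 CPM for CD8A, at 10.96 and 10.1 for CD5 and at 4.17 and 3.48 for THEMIS, and Bama cold replicate 2, which lacks it, at 19.9, 6.72 and 2.52 CPM.

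**Figure D2:**
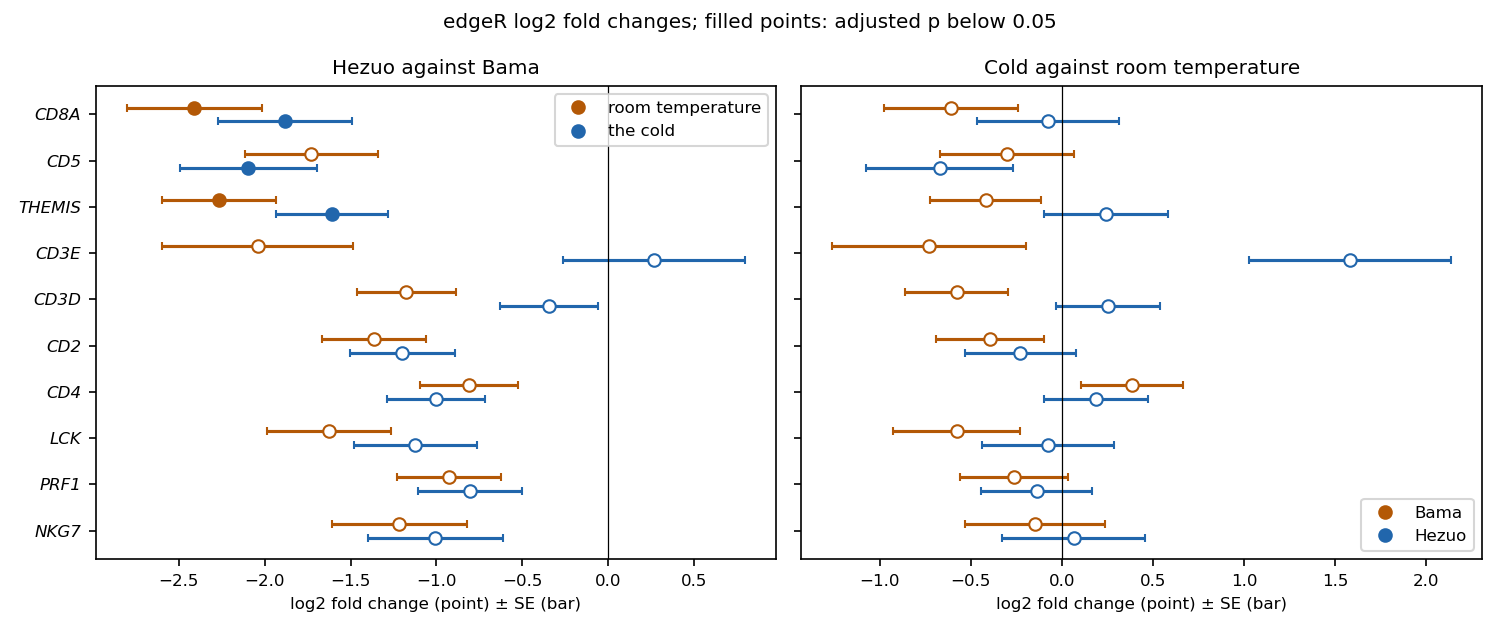
Log2 fold changes of the 10 genes in the edgeR fit, with bars of 1 SE: Hezuo against Bama at each temperature on the left, cold against room temperature in each breed on the right. Filled points have an adjusted p below 0.05: CD8A and THEMIS at both temperatures and CD5 in the cold, all on the left, and no point on the right.

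Other genes of the same cells were examined through 6 lists, of the T cell receptor and its signalling, NK cells and cytotoxic granules, transcription factors and cytokine receptors, homing receptors and chemokines, inhibitory receptors, and gamma delta T cells. They name 115 genes, matched 107 rows, and all 107 were tested. Calls for genes of these lists are those of the main fit. At room temperature 2 were called lower in Hezuo livers and 0 higher, the median log2 fold change was -0.72, and 83 were negative. Neither of these 2 was called lower with Y-linked RNA as a covariate, where 0 of all genes tested were. In the cold 5 were called lower and 0 higher, with a median of -0.71 and 93 negative. The lists, too, were chosen with earlier results of these data known, and their medians are descriptions.

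Within T cell receptor signalling, 27 rows were tested, and their medians were -1.06 at room temperature and -0.83 in the cold. CD27, a costimulatory receptor, was called lower in Hezuo at room temperature (means of 2.40 ± 0.22 and 6.54 ± 2.7 CPM, -1.45 ± 0.30, edgeR adjusted p = 0.0455). In the cold the adaptor gene GRAP2 was called lower (-1.62 ± 0.29, edgeR adjusted p = 0.0211). CD3G, the gamma chain of the CD3 complex, was at -1.37 ± 0.31 at room temperature (adjusted p = 0.0535) and -0.71 ± 0.30 in the cold. CD8B, the partner chain of CD8A, was at -1.30 ± 0.53 and -0.59 ± 0.52 and was not called. PTPRC, the phosphatase CD45 of all leukocytes, was at -0.91 ± 0.30 and -0.83 ± 0.30 and was not called either.

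CD247, the zeta chain of the receptor complex, had fold changes near 0 between the breeds. It was at 58.9 ± 4.27 CPM in Bama and 69.4 ± 16.3 in Hezuo pigs at room temperature and at 81.8 ± 3.99 and 72.8 ± 0.81 CPM in the cold (SD, n = 3). Its log2 fold changes between the breeds were 0.24 ± 0.15 and -0.17 ± 0.15 (edgeR adjusted p = 0.415 and 0.56). With a mean of 29.5 FPKM it was more abundant per length than any of CD3D, CD3E and CD3G.

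Among 25 rows of NK cell and granule genes, with medians of -1.01 and -0.81, the activating receptor gene CD226 (-1.92 ± 0.37, edgeR adjusted p = 0.0262) and RAB27A (-1.24 ± 0.25), a GTPase of granule release, were called lower in Hezuo in the cold and none at room temperature. The granzyme gene GZMB, with means of 2.39 ± 0.13 and 7.08 ± 4.25 CPM at room temperature, was at -1.57 ± 0.48 (adjusted p = 0.115). GZMA has 2 rows, whose reads may be shared, at -1.55 ± 0.52 and -1.51 ± 0.49. The NK receptor gene KLRK1 was at -1.15 ± 0.42, whereas NCR1, a receptor of NK cells, was at 0.93 ± 0.28 (adjusted p = 0.109), with means of 5.77 ± 0.74 CPM in Hezuo and 3.03 ± 1.17 in Bama pigs. KLRB1, an NK receptor gene named here after its values were seen, was at 1.54 ± 0.44 (adjusted p = 0.1003), with means of 2.83 ± 0.75 CPM in Hezuo and 0.98 ± 0.51 in Bama pigs. KLRD1 was at most at 1.08 CPM. The most abundant genes of this list per length were SRGN, TYROBP and ITGAL, which myeloid cells also express, at -1.01 ± 0.46, -0.31 ± 0.25 and -1.30 ± 0.40 at room temperature, and none of them was called.

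Of 24 transcription factor and cytokine receptor genes, with medians of -0.50 and -0.51, BCL11B, which maintains T cell identity, was called lower in Hezuo at room temperature (means of 0.76 ± 0.29 and 3.44 ± 1.4 CPM, -2.18 ± 0.42, edgeR adjusted p = 0.0416). IL21R, a cytokine receptor gene, was called lower in the cold (-1.19 ± 0.27). ETS1 and ID2, abundant genes of that list that other cells also express, were at -0.44 ± 0.14 and -0.34 ± 0.22 at room temperature and were not called. Of 21 rows of homing receptors and chemokines, 0 were called between the breeds by edgeR, while 7 and 9 had an unadjusted p below 0.05, and the medians were -0.37 and -0.42. CXCL12 was at 0.39 ± 0.18 and CXCL10, a chemokine that attracts activated T cells, at -1.63 ± 0.57 (adjusted p = 0.156). CCL4 has 2 rows, one of them at a mean of 754 FPKM and 0.38 ± 0.18, the other at most at 0.92 CPM.

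All 7 inhibitory receptor genes had negative fold changes between the breeds at both temperatures (medians -1.31 and -1.64), with 5 at an unadjusted p below 0.05 each time and 0 called by edgeR. TIGIT, for example, had means of 1.77 ± 1.18 CPM in Hezuo and 7.03 ± 4.2 in Bama pigs at room temperature (-1.99 ± 0.57, adjusted p = 0.103), and PDCD1LG2 was at -0.85 ± 0.33. For gamma delta T cells only 3 of 5 named genes matched a row. TRDC, the constant region of the delta chain, had means of 9.52 ± 3.28 CPM in Hezuo and 8.54 ± 1.9 in Bama pigs at room temperature and of 5.90 ± 0.68 and 6.19 ± 2.29 in the cold, with log2 fold changes of 0.16 ± 0.29 and -0.07 ± 0.30. SOX13 was at 0.48 ± 0.23 and 0.22 ± 0.23. The third gene was at 0.02 and -0.40, and none of the 3 was called between the breeds. At each temperature the TRDC means of the breeds differed by less than the SD of either group.

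Markers of other cells in liver went in either direction. Medians of Hezuo against Bama at room temperature and in the cold were -0.19 and 0.13 for 11 B and plasma cell rows, -0.35 and -0.39 for 15 of Kupffer cells and macrophages, -0.38 and -0.71 for 6 of dendritic cells, and 0.0030 and -0.12 for 7 of endothelium. Of the macrophage rows 11 and 14 were negative, and of the dendritic rows 5 and 6. Medians were 2.72 and 0.65 for 8 neutrophil genes tested, 1.39 and 2.40 for 5 erythroid rows and 0.24 and 0.73 for 11 hepatocyte rows. The stellate and mesenchymal rows had medians of -0.53 and 0.13, and those of cholangiocytes 0.34 and 0.07. Of all these, 1 gene was called between the breeds, LRAT of stellate cells, higher in Hezuo in the cold (1.49 ± 0.33, adjusted p = 0.0381).

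The summed levels of the blood cell lists overlapped between the breeds at both temperatures. Summed over 9 neutrophil rows, Bama libraries held 7.67 to 18.3 CPM at room temperature and 19.3 to 33.1 in the cold, and Hezuo libraries 16.8 to 120 and 17.4 to 49.2 CPM. Summed over 5 erythroid rows Bama libraries held 1396 to 5307 and 235 to 3610 CPM, and Hezuo libraries 4464 to 14817 and 2310 to 20958 CPM. Neither list had a member at 0 in all libraries. The sum over the 11 hepatocyte rows did not overlap at room temperature, at 131607 to 146522 CPM in Bama and 177338 to 197544 in Hezuo pigs. HBB, a globin gene of red cells, was at 8929 ± 5090 CPM in Hezuo and 2755 ± 2058 in Bama pigs at room temperature. The part of these cells in the lower T and NK cell genes was not tested. PTCRA and RAG2, which define developing T cells of the thymus, had 0 counts in all 12 libraries, and the list of thymocyte genes summed to at most 0.72 CPM.

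**Figure D3:**
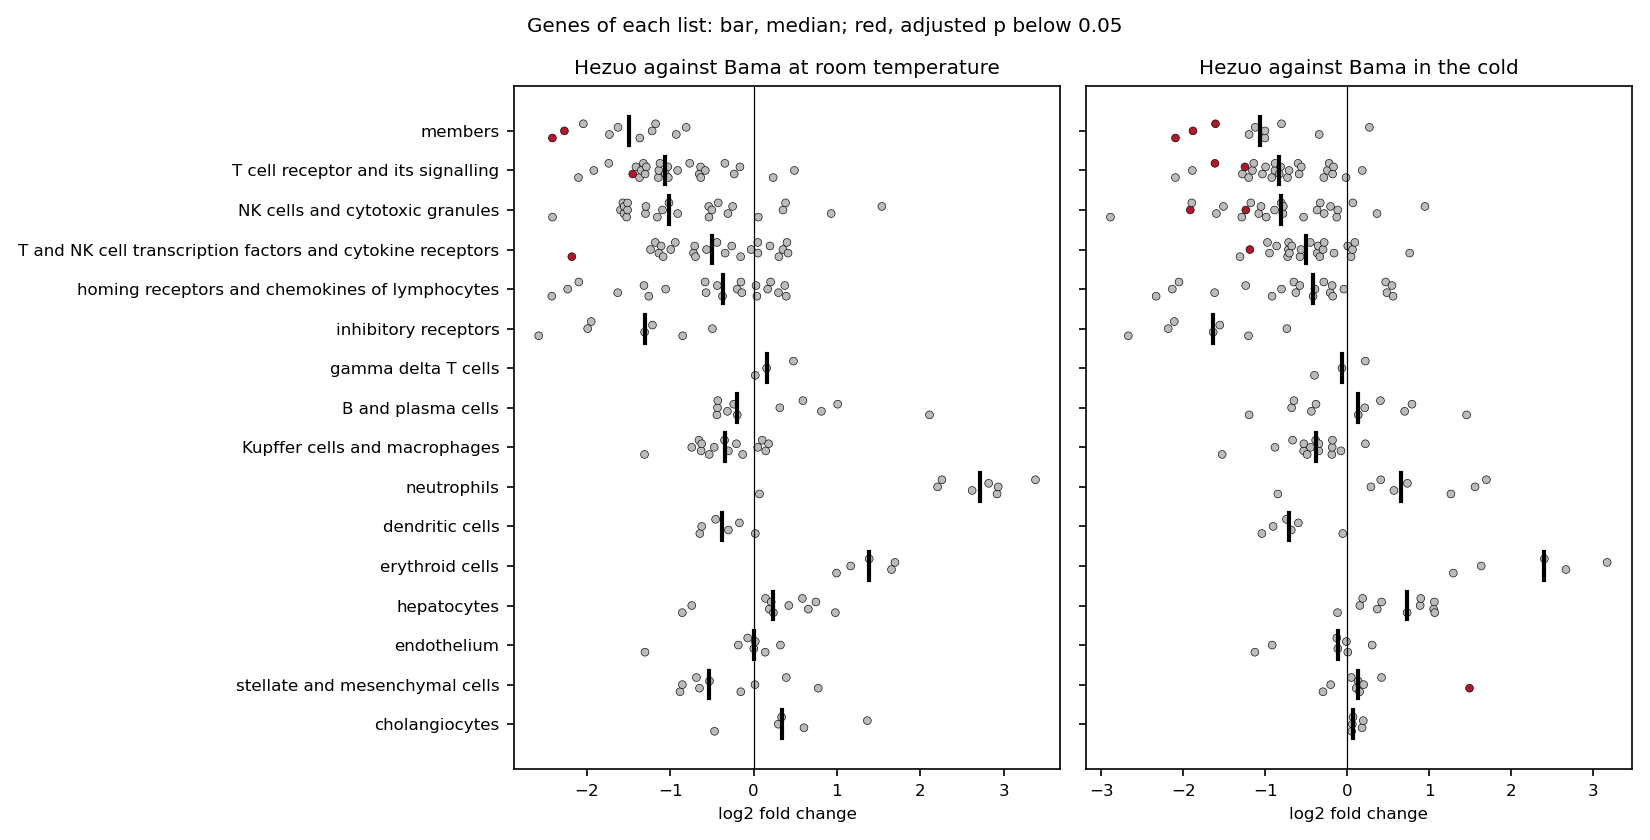
Log2 fold change of Hezuo against Bama at room temperature (left) and in the cold (right) for every tested gene of the 10 genes (members) and of each list, with a bar at the median of the list and called genes in red. The 10 genes have medians of -1.49 and -1.07, macrophage genes -0.35 and -0.39, B cell genes -0.19 and 0.13 and endothelial genes 0.0030 and -0.12, and neutrophil and erythroid medians lie above 0.

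Ratios within a library compare the 10 genes with each other free of library scaling. The ratio of CD4 to CD8A in FPKM was 0.64, 1.31 and 0.53 in Bama pigs at room temperature and 0.94, 1.88 and 1.48 in the cold. In Hezuo pigs it was 1.92, 2.52 and 1.96 at room temperature and 1.26, 4.14 and 2.38 in the cold. Hezuo lay above Bama at room temperature without overlap, and in the cold Hezuo replicate 1 lay inside the Bama range. This ratio restates that CD8A was lower by more than CD4. CD8B, which T cells with the CD8 alpha beta form carry while many NK and gamma delta T cells carry CD8A alone, gave counts that were 0.12 to 0.16 of those of CD8A in Bama pigs at room temperature and 0.15 to 0.26 in the cold. In Hezuo pigs they were 0.30 to 0.31 at room temperature, above all 6 Bama libraries, and 0.22 to 0.61 in the cold.

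Relative to CD3D, CD8A counts were 0.87 to 1.63 of those of CD3D in the 6 Bama libraries and 0.40 to 0.80 in the 6 Hezuo libraries, with no overlap. CD5 was 0.26 to 0.62 of CD3D in Bama and 0.11 to 0.33 in Hezuo pigs. PRF1 was 0.37 to 0.66 of CD3D in Bama and 0.41 to 0.72 in Hezuo pigs, and NKG7 0.78 to 1.59 and 0.61 to 1.08. Over both temperatures these ranges overlapped, but in the cold alone PRF1 was 0.54 to 0.66 of CD3D in Bama and 0.41 to 0.46 in Hezuo pigs, without overlap. This was not particular to PRF1. In the cold CD5 (0.39 to 0.62 and 0.11 to 0.20), LCK (0.82 to 1.21 and 0.56 to 0.74) and CD2 (1.19 to 1.59 and 0.68 to 0.98) did not overlap either, while NKG7 and CD3E did. CD3D, which they share as denominator, was itself at -0.34 ± 0.28 between the breeds in the cold. These ratios are descriptions and were not tested.

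**Figure D4:**
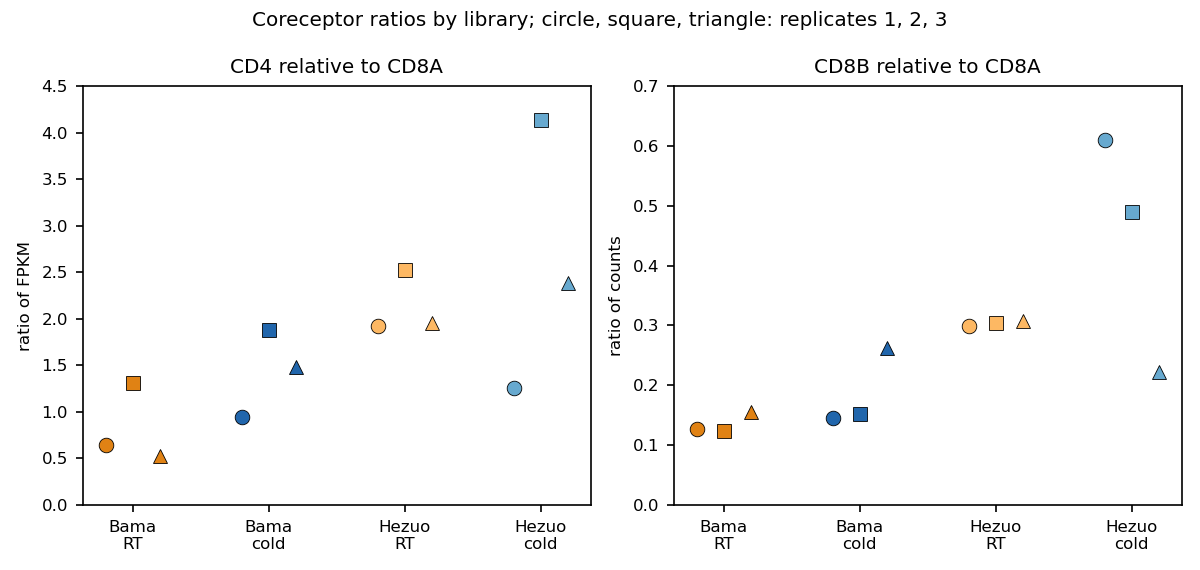
Ratio of CD4 to CD8A in FPKM (left) and of CD8B to CD8A in counts (right) in each of the 12 libraries. At room temperature the Hezuo libraries lie at 1.92 to 2.52 on the left and 0.30 to 0.31 on the right, above all Bama libraries at that temperature, which reach 1.31 and 0.16.

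Cold exposure was followed by no called difference in any of the 10 genes in Bama pigs. Of all genes tested, 0.924% were called in that comparison, neither edgeR nor DESeq2 called any of the 10 (0 each), and 0 reached an unadjusted p below 0.05. The 9 genes other than CD4 had negative fold changes, from -0.15 ± 0.38 for NKG7 to -0.73 ± 0.53 for CD3E, with CD8A at -0.61 ± 0.37, CD3D at -0.58 ± 0.28 and LCK at -0.58 ± 0.35 (edgeR adjusted p = 0.351 to 0.889 for the 9). The median over the 10 was -0.41, against -0.011 over all genes tested. These fold changes also set room temperature libraries without DDX3Y RNA against cold replicates 1 and 3, which had 2284 and 3769 counts of it. Its part was not separated from that of cold in this fit. CD4 was the exception in sign, at 0.38 ± 0.28 (adjusted p = 0.547), with means of 40.4 ± 3.83 CPM in the cold and 31.0 ± 6.06 at room temperature. It was the 1 gene of the 10 whose libraries did not overlap upward, against 11.2% of all genes tested, a share near the background. Over the same libraries the 15 Kupffer cell and macrophage rows had a median of 0.47, and their part in the level of CD4 was not tested.

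In Hezuo pigs the 10 genes did not share a direction in the cold, with 5 positive and 5 negative fold changes and a median of -0.0057. Of all genes tested 0.281% were called, and edgeR called 0 of the 10. CD3E had an unadjusted p below 0.05 and was the 1 gene that DESeq2 called, with an adjusted p of 0.0498, among 3.81% of all genes. CD5 lay lower in the cold without overlap, with means of 2.16 ± 0.48 against 3.44 ± 0.51 CPM (-0.67 ± 0.40, edgeR adjusted p = 0.431), and THEMIS higher without overlap (0.24 ± 0.34, adjusted p = 0.768). Each is 1 gene of 10, against 10.9% of all genes lower and 10.8% higher without overlap. CD8A, LCK, PRF1 and NKG7 lay between -0.14 ± 0.31 and 0.06 ± 0.39, CD2 at -0.23 ± 0.30, CD4 at 0.19 ± 0.29 and CD3D at 0.25 ± 0.29.

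The response to cold did not differ between the breeds past the threshold for any of the 10. Of all genes tested 0.00739%, 1 gene, was called for this difference, edgeR called 0 of the 10, DESeq2 called 0, and CD3E alone had an unadjusted p below 0.05 (difference of 2.31 ± 0.77 on the log2 scale, edgeR adjusted p = 0.443). CD3D was at 0.83 ± 0.40 and THEMIS at 0.66 ± 0.46, while CD5 was at -0.37 ± 0.54. Averaged over both breeds, 3.89% of all genes were called for cold, none of the 10 was called by edgeR or by DESeq2, and none had an unadjusted p below 0.05. The averaged fold changes ran from -0.49 ± 0.27 for CD5 to 0.43 ± 0.38 for CD3E. Of the 107 rows of the other lists, 1 was called for the average, HAVCR2, which encodes the inhibitory receptor TIM-3 and is also expressed by macrophages. It rose from 4.51 ± 2.44 to 58.2 ± 41.3 CPM in Bama and from 3.22 ± 0.98 to 18.7 ± 14.2 in Hezuo pigs (3.11 ± 0.59, edgeR adjusted p = 0.0229).

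The split of CD3E in Hezuo pigs in the cold was not seen in CD3D or CD3G. CD3E counts were 0.55 to 0.86 of those of CD3D in the 6 Bama libraries and 0.38 to 0.45 in Hezuo pigs at room temperature. In Hezuo pigs in the cold the ratio was 0.42, 1.54 and 1.13 for replicates 1, 2 and 3, so replicates 2 and 3 exceeded every other library. CD3G counts, which share some reads with other genes as their fractional values show, were 0.59 to 1.15 of those of CD3D over the 12 libraries and 0.70, 0.96 and 0.70 in Hezuo pigs in the cold. Of the genes on either side of CD3E in the RefSeq order of the Sscrofa11.1 assembly, MPZL2 was at 7.61, 3.71 and 0.24 CPM in these libraries and CD3D at 12.8, 15.0 and 17.1 CPM.

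The circRNA table held 1 entry that spans CD3E. A circRNA is a closed RNA ring, counted by reads that cross the back-splice junction where a later end is joined to an earlier start. The entry lies on the plus strand of chromosome 9 from 45619557 to 45668516 in the deposited coordinates, whose build is not given in the sources used here. It covers 48960 bp with a spliced length of 28702 bases, is classed as made of exons and introns, and carries CD3G as its deposited host. On the RefSeq map, in whose genes 98.4% of 17265 exonic circRNAs of the table lie inside their named host, that interval holds CD3E, CD3D and CD3G whole and a portion of UBE4A. The other 3 circRNAs assigned to CD3G, with 3 to 6 counts each, lie inside UBE4A on that map. CD3E and this circRNA were singled out after their values were seen.

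The circRNA that spans CD3E had 63 and 96 back-splice counts in Hezuo cold replicates 2 and 3 and 0 in each of the other 10 libraries. Those 2 libraries are also the ones in which CD3E was high, with 536 and 474 gene counts against 113 in Hezuo cold replicate 1 and 83 to 171 at room temperature. A count of 0 allows a share of up to 0.00397% to 0.00767% of back-splice reads in the 10 libraries (3 counts of each total, counting error only). Among 986 circRNAs of the table with at least 100 counts, 3 had all of them in 1 or 2 libraries. In all 46 circRNAs had counts in these 2 libraries alone, and the next largest total among them was 12. Its part in the level of CD3E was not tested. Without the 2 libraries the log2 fold change of CD3E between cold and room temperature in Hezuo pigs was 0.02 ± 0.64 in place of 1.58 ± 0.56, and the breed difference in cold response was 0.74 ± 0.75 in place of 2.31.

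**Figure D5:**
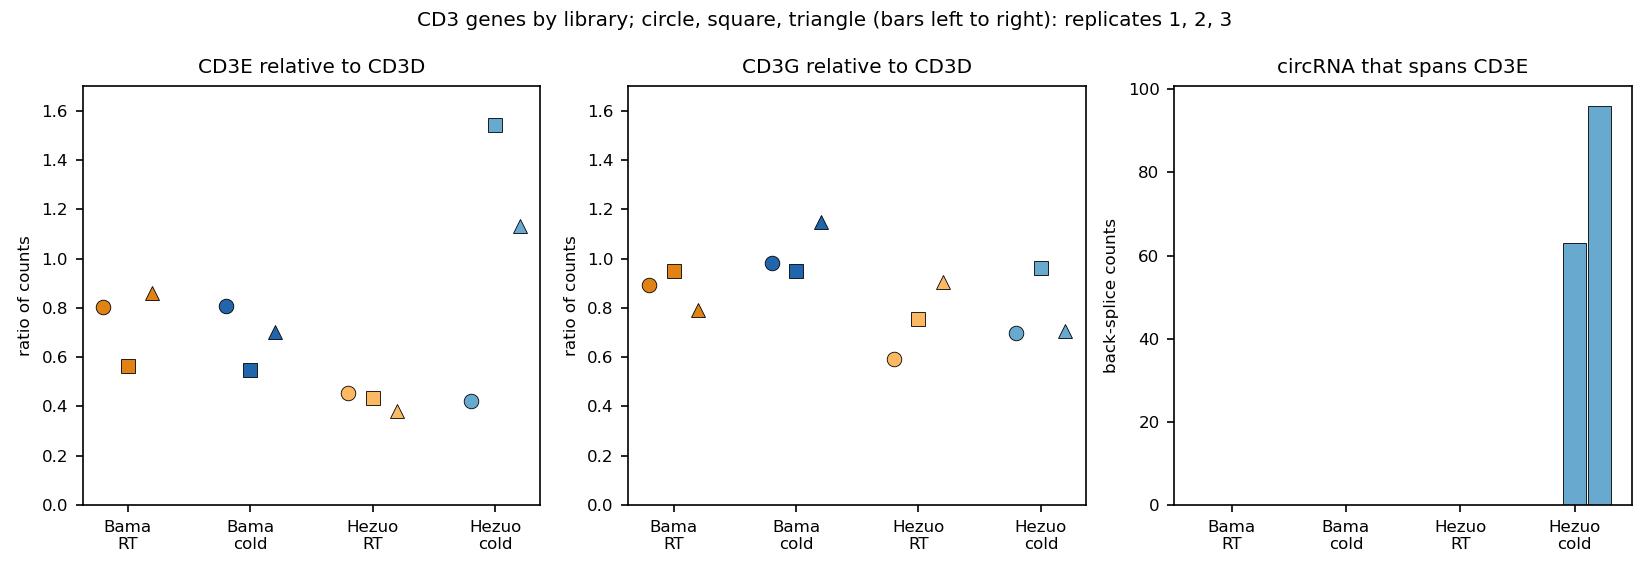
Counts of CD3E (left) and of CD3G (middle) relative to CD3D, and back-splice counts of the circRNA that spans CD3E (right), in each of the 12 libraries. Hezuo cold replicates 2 and 3 have CD3E ratios of 1.54 and 1.13 and back-splice counts of 63 and 96, while the other 10 libraries have CD3E ratios of 0.38 to 0.86 and no back-splice count.

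The 10 genes otherwise gave few circRNAs. CD8A and THEMIS were named hosts of 1 each, with 2 and 3 counts, 5 of 625980 back-splice counts in all. The THEMIS entry lies on chromosome 1 from 35505782 to 35523102 and the CD8A entry on chromosome 3 from 58029158 to 58029621, both on the plus strand in the deposited coordinates. Genes of the 6 other lists were hosts of more, with 119 counts over 8 circRNAs for the integrin gene ITGA1, 118 for CCL4 and 108 for PTPRC.

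Across the 12 libraries the 10 genes varied together to different degrees. The median Pearson r of log2 CPM with the other 9 was 0.95 for CD2, 0.94 for LCK and 0.93 for CD8A, and lowest for CD3E at 0.67 and CD4 at 0.69. These r values describe 12 libraries that share their breed groups, library scaling and depth. In the 6 Bama libraries the median r was 0.96 for CD3E and 0.07 for CD4. That r pools both temperatures, between which the mean of CD4 was higher in the cold and those of the other 9 lower, while at room temperature replicate 2 was the lowest for CD4 too. In the 6 Hezuo libraries the medians ran from -0.09 for CD5 to 0.62 for LCK.

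For each of the 10, the 3 tested genes outside the 10 with the highest Pearson r of log2 CPM over the 12 libraries were listed. Some pairs within the 10 had a higher r, such as LCK and CD2 (0.985) or THEMIS and CD8A (0.978). Outside the 10, CD8A was most like CD27 (Pearson r = 0.979, n = 12), CD5 like CD226 (0.981), LCK like SASH3 (0.983), an adaptor of lymphocytes, and CD3D like SLAMF6 (0.961), a receptor of T and NK cells. CD2 was most like CD38 (0.990), as was THEMIS (0.951), and CD38 was also among the 3 outside genes most alike of CD8A (0.973) and LCK (0.980). PRF1 was most like PIK3CD (0.988), a lipid kinase subunit of leukocytes, and NKG7 like LAPTM5 (0.976). CD3E and CD4 were most like the widely expressed genes HDAC1 (0.954) and NEMF (0.948). Widely expressed genes were also among the 3 for other members, such as DNMT1 (0.950) for THEMIS and LLGL1 (0.971) for CD5.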

How the data were processed

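RNA of 12 pig livers, 3 per group, was sequenced after removal of ribosomal RNA with a kit that keeps strand, per the labels. The authors deposited an estimated count and an FPKM value per gene and library, per the file headers, and a back-splice count and its RPM per circRNA. The deposited circRNA counts were used as raw counts, and the deposited RPM were not used for any value. Reads were trimmed with fastp, per the submitters' processing notes. The sources used here name no aligner, gene counter, circRNA caller or genome build.

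Estimated counts were rounded to whole numbers, filtered (edgeR filterByExpr, minimum count 10 and minimum total 15), scaled by TMM and fitted over all 12 libraries and 4 groups with edgeR 4.0.16 in R 4.3.3 (robust quasi-likelihood test, 8 residual degrees of freedom). The p-values were adjusted by Benjamini-Hochberg over all 13532 genes. SE is the fold change divided by the root of the F statistic. Log2 CPM for correlations used a prior count of 2. The scripts were tested on simulated data. Alternatives were DESeq2 1.42.0, its size factors in edgeR, limma 3.58.1 on log2(FPKM + 0.1) and log2(FPKM + 1), no filter, only the 2 groups compared, a replicate block, Y-linked RNA (DDX3Y above 100 counts) as a covariate, each library left out and, chosen after seeing the data, Hezuo cold replicates 2 and 3 left out.

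The 10 genes and the gene lists were chosen with earlier results of these data known. Named besides the 10 were, from each T and NK cell list, the called genes, the 3 most abundant by FPKM and some fixed subunits and receptors, from the other lists called or abundant genes, and the 3 genes most like each of the 10. Some genes that this rule names are not reported here. GZMA and CCL4 have 2 rows each, both kept. Replicate libraries correlated at 0.963 to 0.977, and their counts differed by more than sampling noise (chi-square per degree of freedom of 73.8 to 196). Each pig is 1 replicate. Intervals and floors cover counting error only.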

Additional observations from a re-analysis of the deposited data

Results flagged for a closer look

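The circRNA that spans CD3E was singled out because its signal lies outside the gene counts that the comparisons use and is above the limit that a count of 0 allows. It had 159 back-splice counts in all, 63 in Hezuo cold replicate 2 and 96 in Hezuo cold replicate 3, and 0 in each of the other 10 libraries, including the 3 Hezuo libraries at room temperature. Its part in the CD3E counts of these libraries was not tested.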

How the results depend on the processing

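Between the breeds at room temperature 2 of the 10 genes were called, and the count was 8 with DESeq2, 1 with only the 2 groups compared, 1 without Hezuo cold replicates 2 and 3, 0 with the Y-linked covariate and 0 to 9 with 1 library left out. In the cold 3 were called, and the count was 6 with DESeq2, 7 and 6 with limma on log2(FPKM + 0.1) and log2(FPKM + 1), 2 with only the 2 groups compared (THEMIS lost), 2 with the Y-linked covariate (CD8A lost), 0 without Hezuo cold replicates 2 and 3 and 0 to 6 with 1 library left out. In that comparison the 2 limma fits called 11.5% and 11.8% of all genes lower in Hezuo livers, against 0.961% in the main fit. For cold in Hezuo pigs the count was 0, and 1 with DESeq2. For cold in Bama pigs, the averaged response and the difference in response it was 0 in every fit run, 0 to 0 with 1 library left out. Only the 2 groups compared gives no value for the latter 2. With the replicate number as a block 1 gene, THEMIS, was called between the breeds at room temperature (CD8A edgeR adjusted p = 0.0527). That fit called 0.118% of all genes lower. Correlations of the deviations of same-numbered libraries were -0.198 to 0.148 over 18 pairs. No pairing by number was seen in them, but differently numbered pairs were not compared. The genes called over the whole table were 125, 38, 146, 374, 1 and 526 for cold in Bama, cold in Hezuo, breed at room temperature, breed in the cold, the difference and the average, and 1 to 682, 0 to 515, 3 to 1036, 16 to 1781, 0 to 139 and 3 to 1491 over the alternatives.

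Of 1240 fold changes of the 10 genes under alternatives, 1131 kept their direction and side of the threshold, 31 passed it newly, 33 no longer did and 45 reversed sign, the cause not tested. With limma on log2(FPKM + 0.1), PRF1 in Bama cold was 0.034, LCK in Hezuo cold 0.0084, CD3E between breeds in the cold -0.22, the differences of CD2 and PRF1 -2e-04 and -0.12, and the averages of CD3D and NKG7 0.0202 and 0.066. With log2(FPKM + 1), PRF1 in Bama cold was 0.0071, LCK in Hezuo cold 0.0044, CD3E between breeds in the cold -0.15, the difference of PRF1 -0.072 and the average of NKG7 0.057. With the Y-linked covariate the difference of CD5 was 0.094. Without Hezuo cold replicates 2 and 3, Hezuo cold was 0.16 for CD8A and -0.53 for CD4, CD3E between breeds in the cold -1.31, the difference of PRF1 -0.014, and the averages of CD3E and CD4 -0.35 and -0.067. With 1 library left out, Bama cold ran from -0.67 to 0.016 for CD5 and -0.67 to 0.14 for NKG7. Hezuo cold ran from -0.20 to 0.033 for CD8A, -0.17 to 0.080 for LCK, -0.23 to 0.022 for PRF1, -0.11 to 0.35 for NKG7 and -0.18 to 0.45 for CD4. CD3E between breeds in the cold ran from -0.11 to 0.67. Differences ran from -0.084 to 0.45 for PRF1, -0.69 to 0.0064 for CD5, -0.083 to 0.50 for CD2, -0.073 to 0.74 for NKG7 and -0.57 to 0.062 for CD4. Averages ran from -0.22 to 0.0085 for THEMIS, -0.30 to 0.10 for NKG7 and -0.27 to 0.019 for CD3D. With 3 pigs per group, SE were 0.28 to 0.56 for the breed comparisons. The smallest log2 fold change called was -1.61, for THEMIS in the cold, and one of -2.04, for CD3E at room temperature, was not called. Differences several times the SE could thus be missed.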
